A study of Homo sapiens with 8 samples.

Results

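Genes of the nuclear pore and of nuclear transport, 58 in number, were followed in RNA recovered with 2 microRNAs from HEK293T cells, an established line from human embryonic kidney. The members were chosen by gene symbol, by a rule that used no measured value but was set with earlier results of these data known. They comprised the genes named NUP, IPO, XPO, KPNA, KPNB, TNPO, RANBP, NXF or NXT with a number or, for XPOT, a letter, together with TPR, RAN, RANGAP1, RCC1, SEH1L, AAAS, NDC1 and CSE1L. In total 58 of the 9535 genes with a named probe on the arrays were members, measured by 72 of 14479 probes. They fell into 26 nucleoporins, 26 transport receptors and 6 genes of the Ran system. Of 70 coding genes in the RefSeq annotation whose symbol met the rule, 12 had no probe in the table analysed, namely RANBP2, POM121, NUP210L, RANBP3L, RANBP9, RANBP17, KPNA7, NXF1, NXF2, NXF2B, NXF3 and NXT2.

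The cells had received 200 pmol of a biotin-carrying synthetic duplex, either miR-23b or miR-27a, and were collected 24 h later. RNA held with the duplex was recovered on streptavidin beads (the pull-down) and compared with RNA that was not pulled down (the input). Illumina bead arrays gave 4 groups of 2 arrays (both RNA fractions of both miRNAs), and all 8 arrays came from cells carrying one of these duplexes, inputs included. A duplex without a target was not among the samples analysed here, so the change of each pull-down is taken against its own input. The labels do not say whether replicates 1 and 2 were separate cultures, so the p-values rest on the spread among these arrays alone, and that spread may be technical.

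Proteins and RNA pass between nucleus and cytoplasm through the nuclear pore complex, a ring of nucleoporins set in the nuclear envelope, whose scaffold carries flexible proteins rich in phenylalanine and glycine that fill the channel. Transport receptors of the importin beta family bind cargo and those flexible proteins, and the small GTPase Ran, bound to GTP in the nucleus and to GDP in the cytoplasm, sets the direction by making importins release and exportins hold their cargo. A microRNA guides an Argonaute protein to messenger RNAs that pair with its seed, bases 2 to 8 counted from its 5′ end. Exportin 5 carries microRNA precursors out of the nucleus, and importin 8 has been described as a partner of Argonaute.

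Both mature strands of each hairpin are shown because the seed is the part by which the baits could select a transcript, and because the labels do not state the arm. The sequences are those of RefSeq on GRCh38.p14, written 5′ to 3′ with the seed in capitals.
hsa-miR-23b-3p: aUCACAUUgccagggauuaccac
hsa-miR-27a-3p: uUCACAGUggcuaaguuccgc
hsa-miR-23b-5p: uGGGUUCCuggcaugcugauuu
hsa-miR-27a-5p: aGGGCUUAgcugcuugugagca
The 3p strands lie at chr9:95085265-95085287 on the plus strand (miR-23b, 23 bases) and at chr19:13836447-13836467 on the minus strand (miR-27a, 21 bases). Their seeds hold the same base at 6 of 7 positions, the first 5 in a row. MIR23B lies within the span of the coding gene AOPEP, beside MIR27B and MIR24-1, and MIR27A within that of the long non-coding RNA MIR23AHG, beside MIR23A and MIR24-2. Target sites in the members' transcripts were not analysed here.

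Values are the deposited signals on a log2 scale, and a change is the mean of a pull-down minus that of its input, with the standard error (SE) of the fit over n = 2 arrays a group. A gene was called higher or lower where limma, a linear model fitted to all probes of all 8 arrays, gave a Benjamini-Hochberg adjusted p under 0.05, and the probe with the highest mean stood for it. That main fit left out the replicate number, which was added as a block in an alternative fit. The arrays had medians between 9.09 and 9.12, so that each change is read against the remaining probes of its array. A lower value means less of an RNA in the pull-down relative to its input, and not a lower level in the cells. For the level in an input, RNA per cell and the number of cells holding the RNA cannot be told apart. Since the authors' transformation is not given in the sources used here, folds are apparent folds. Input arrays correlated with each other at 0.979 to 0.996, pull-down arrays at 0.955 to 0.984 and inputs with pull-downs at 0.916 to 0.951. Of 8 listed markers of the HEK293 line, 7 had a probe, with input means between 8.04 and 13.1. The lists for fibroblasts, blood cells and hepatocytes had a probe for 1 gene each, COL1A1 (7.62), CD14 (7.56) and ALB (8.31), on arrays whose lowest values lay between 7.18 and 7.37. ALB lay above the lowest of the HEK293 markers, and lists with 1 measured gene cannot test the label of the cells.

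In the miR-23b pull-down 14 of the 58 members were higher than in the input, 5 were lower and 39 did not pass. That is 24.1% higher and 8.62% lower, where over all 9535 genes 13.4% were higher and 10.9% lower. With miR-27a 19 members were higher, 4 lower and 35 did not pass, or 32.8% and 6.90%, against 18.5% and 16.1% of all genes. The median change of the members was 0.36 with miR-23b (0.33 within replicate 1 and 0.51 within replicate 2) and 0.31 with miR-27a (0.27 and 0.23), where the medians of all genes were 0.02 and -0.04. When the replicate number entered the fit as a block, 28 members were higher and 7 lower with miR-23b (24.5% and 20.2% of all genes), and 25 were higher and 8 lower with miR-27a (26.4% and 27%). Omission of single arrays left fewer calls. With miR-23b omission of input replicate 1 left 10 called members and that of input replicate 2 left 9, and with miR-27a there were 14 without either input and 12 without pull-down replicate 2.

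**Figure D1:**
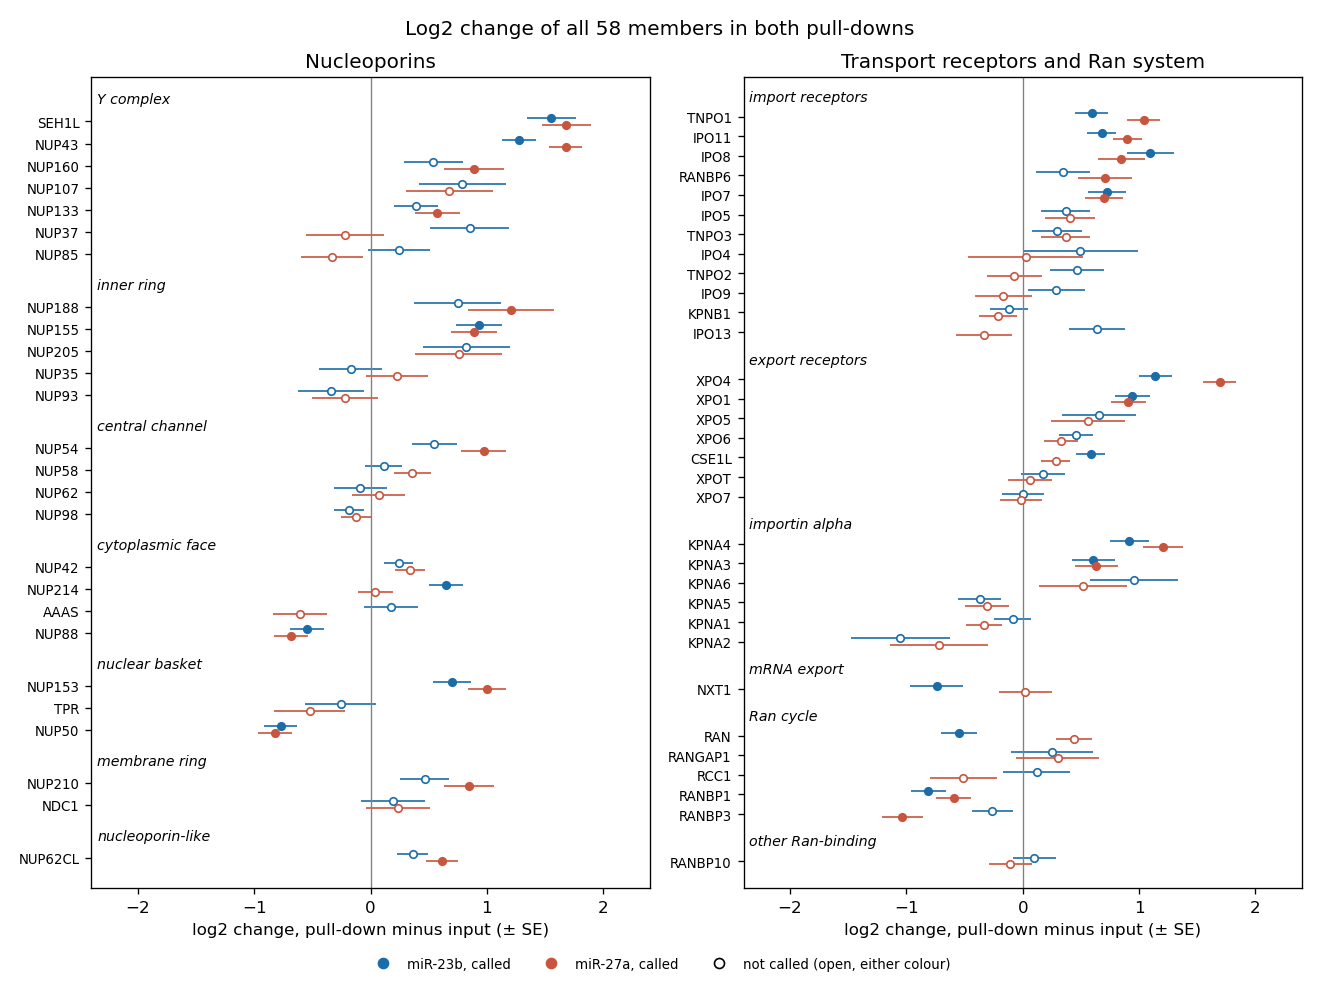
Log2 change (pull-down minus input, with SE) of each of the 58 members in the miR-23b (blue) and miR-27a (red) pull-downs, grouped by role, filled where limma called the change and open where it did not. The 5 largest rises with miR-27a, those of XPO4, SEH1L, NUP43, NUP188 and KPNA4, were of 1.2 or more, and among Ran genes RANBP1 (-0.81 with miR-23b) and RANBP3 (-1.04 with miR-27a) sat farthest below 0.

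Among the 26 nucleoporins 5 were higher and 2 lower with miR-23b (19.2% and 7.69%, against 13.4% and 10.9% of all genes, median change 0.38). With miR-27a 10 were higher and 2 lower (38.5% and 7.69%, against 18.5% and 16.1% of all genes, median 0.35). Of 26 transport receptors 9 were higher and 1 lower with miR-23b (34.6% and 3.85%, median 0.48). With miR-27a 9 were higher (34.6%) and 0 lower (median 0.35, with 0 lower in limma at an unadjusted p under 0.05 and 1 with the replicate block). Of the 6 Ran genes 0 were higher and 2 lower (33.3%) in each pull-down, with medians of -0.08 and -0.31 (at an unadjusted p under 0.05 in limma, 0 were higher for miR-23b and 1 for miR-27a). With the replicate block 13 nucleoporins and 15 receptors were higher with miR-23b, where 24.5% of all genes were. With that block 5 nucleoporins were lower with miR-27a, where 27% of all genes were. Differences between the classes were not tested.

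Omission of 1 array altered these class counts. Without miR-23b input replicate 1, 2 nucleoporins and 5 receptors were called higher with miR-23b, and without its input replicate 2 there were 4 receptors. With miR-27a 4 nucleoporins were higher without pull-down replicate 2 and 5 without either input, and 5 receptors without input replicate 1 or pull-down replicate 2.

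The Y complex, the Y-shaped scaffold unit of the outer rings, had the nucleoporins with the largest rises. Of its 7 members under the naming rule 2 were higher for miR-23b and 4 for miR-27a, with medians of 0.79 and 0.68. That is 28.6% and 57.1%, against 13.4% and 18.5% of all genes. SEC13, a further subunit outside the rule, had values of 0.39 ± 0.26 with miR-23b (limma, adjusted p = 0.31) and -0.54 ± 0.26 with miR-27a (adjusted p = 0.15, or 0.028 and lower when blocked by replicate). SEH1L, a small propeller subunit that also serves in the GATOR2 complex of nutrient signalling, read 9.77 and 9.50 in the miR-23b inputs of replicates 1 and 2 and 11.41 and 10.97 in the pull-downs. With miR-27a it read 9.75 and 9.62 in the inputs and 11.58 and 11.15 in the pull-downs. All pull-down values lay more than 1 unit above all inputs, and the changes were 1.55 ± 0.21 (limma, adjusted p = 0.0037, apparent fold 2.94) and 1.68 ± 0.21 (adjusted p = 0.0016, apparent fold 3.21).

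NUP43, another propeller subunit of the Y complex, read 8.48 and 8.48 in the miR-23b inputs against 9.60 and 9.91 in the pull-downs. In the miR-27a arrays it read 8.47 and 8.43 against 10.10 and 10.16. The groups were far apart, with changes of 1.27 ± 0.14 (limma, adjusted p = 0.0024) and 1.68 ± 0.14 (adjusted p = 0.00065). SEH1L and NUP43 stayed called in both pull-downs when any one of the 8 arrays was left out. NUP160, of an arm of the Y, and NUP133, of its tail, rose with miR-27a, by 0.89 ± 0.25 (adjusted p = 0.029) and 0.57 ± 0.19 (adjusted p = 0.049), and had values of 0.54 (adjusted p = 0.16) and 0.39 (adjusted p = 0.17) with miR-23b. The replicate block called both genes higher in both pull-downs (adjusted p = 0.0071 and 0.028 with miR-23b). NUP160 lost its call without miR-27a input replicate 1, input replicate 2 or pull-down replicate 2 (adjusted p up to 0.17), and NUP133 without 7 of the 8 arrays, all but miR-27a pull-down replicate 1 (up to 0.26), and under median scaling (0.056).

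NUP107, NUP37 and NUP85, the remaining members of the Y complex under the naming rule, passed in neither pull-down. NUP107 had values of 0.79 ± 0.37 and 0.68 ± 0.37, and NUP85 of 0.24 ± 0.27 and -0.33 ± 0.27. NUP37 read 10.77 and 11.31 in the miR-23b inputs and 11.47 and 12.31 in the pull-downs, and with miR-27a 10.99 and 11.48 against 10.72 and 11.32. Its pull-downs lay above the inputs with miR-23b and overlapped them with miR-27a, with changes of 0.85 ± 0.34 (limma, adjusted p = 0.11, or 0.00071 when blocked by replicate) and -0.22 ± 0.34 (adjusted p = 0.64). With the block NUP107 was also higher in both pull-downs and NUP85 lower with miR-27a (adjusted p = 0.031).

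Of the 5 measured members of the inner ring, the scaffold layer at the middle of the pore, 1 was higher for miR-23b and 2 for miR-27a (20% and 40%, against 13.4% and 18.5% of all genes). NUP155, which anchors this ring near the membrane, read 10.18 and 10.44 in the miR-23b inputs and 11.36 and 11.12 in the pull-downs. The miR-27a inputs gave 10.06 and 10.37 and the pull-downs 10.90 and 11.31. It rose by similar amounts, 0.93 ± 0.20 (limma, adjusted p = 0.014) and 0.89 ± 0.20 (adjusted p = 0.011). NUP188, a large scaffold protein, read 10.52 and 10.32 in the miR-27a inputs and 11.26 and 11.998 in the pull-downs, a rise of 1.21 ± 0.37 (adjusted p = 0.039), and stood at 0.75 ± 0.37 with miR-23b (adjusted p = 0.18, or 0.042 when blocked by replicate). Its paralogue NUP205 had values of 0.82 ± 0.37 and 0.76 ± 0.37 (adjusted p = 0.15 in both, or 0.022 and 0.027 when blocked by replicate).

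For NUP188 and NUP205 replicate 2 of the pull-downs stood well above replicate 1, with NUP205 at 12.60 and 13.68 with miR-23b and at 12.81 and 13.69 with miR-27a, against inputs between 12.25 and 12.50. NUP155 lost its call with miR-23b without pull-down or input replicate 1 (adjusted p up to 0.069), and with miR-27a without input replicate 1 or pull-down replicate 2 (up to 0.076). NUP188 lost it without either miR-27a input or pull-down replicate 2 (up to 0.21). NUP93, the linker of the inner ring, and NUP35 passed in neither pull-down, with values from -0.34 to 0.23, although the block called NUP93 lower with miR-23b (adjusted p = 0.044).

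Nucleoporins of the central channel mostly did not pass. NUP54, a partner of NUP62 in the channel, read 9.70 and 9.60 in the miR-27a inputs and 10.72 and 10.53 in the pull-downs and rose by 0.97 ± 0.19 (limma, adjusted p = 0.0076, and 0.051 without miR-27a pull-down replicate 1). With miR-23b its value was 0.55 ± 0.19 (adjusted p = 0.076, or 0.0067 when blocked by replicate). NUP58, NUP62 and NUP98, which like NUP54 carry phenylalanine and glycine repeats, had values from -0.19 to 0.11 with miR-23b and from -0.13 to 0.36 with miR-27a. Among these, NUP98 read 7.81 and 7.83 in the miR-23b inputs and 7.61 and 7.66 in the pull-downs (change -0.19 ± 0.13, adjusted p = 0.32), with -0.13 ± 0.13 with miR-27a (adjusted p = 0.47). NUP98, and NUP58 with input means of 7.99 (miR-23b) and 7.96 (miR-27a), lay near the lowest values of the arrays. Little can therefore be read from their lack of a call.

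In the nuclear basket, 1 of 3 members was higher and 1 lower with each miRNA (33.3% each). Over all genes 13.4% were higher and 10.9% lower with miR-23b, and 18.5% and 16.1% with miR-27a. There NUP153, a mobile protein that docks transport receptors, read 10.39 and 10.66 in the miR-23b inputs and 11.28 and 11.17 in the pull-downs, and 10.20 and 10.54 against 11.34 and 11.39 with miR-27a. It rose by 0.70 ± 0.16 (limma, adjusted p = 0.020) and 1.00 ± 0.16 (adjusted p = 0.0037). NUP50, which binds NUP153 and helps to release cargo from importin alpha, read 10.13 and 9.89 in the miR-23b inputs and 9.33 and 9.14 in the pull-downs. The miR-27a arrays gave 10.003 and 9.98 against 9.22 and 9.12. Every pull-down lay below every input, and NUP50 fell by 0.77 ± 0.14 (adjusted p = 0.0093) and 0.82 ± 0.14 (adjusted p = 0.0048). The RNAs of 2 basket proteins that bind each other thus went in opposite directions, and no protein was measured. The third, TPR, which forms the filaments of the basket, had values of -0.26 ± 0.31 (adjusted p = 0.58) and -0.52 ± 0.31 (adjusted p = 0.22, or 0.0068 when blocked by replicate). With miR-23b the call of NUP153 was lost without pull-down replicate 1, pull-down replicate 2 or input replicate 1 (adjusted p up to 0.099) and that of NUP50 without input replicate 1 (0.051), while both held with miR-27a in each of the 8 omissions.

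At the cytoplasmic face NUP214 and NUP88, which form a complex that takes part in export, were called in opposite directions with miR-23b, and with miR-27a NUP88 alone was called. NUP214 read 9.29 and 9.44 in the miR-23b inputs and 9.89 and 10.13 in the pull-downs, a rise of 0.65 ± 0.15 (limma, adjusted p = 0.019). With miR-27a it read 9.35 and 9.41 against 9.32 and 9.52, groups that overlapped (0.04 ± 0.15, adjusted p = 0.86). NUP88 fell in both, from 10.96 and 11.24 to 10.51 and 10.59 with miR-23b and from 11.14 and 11.19 to 10.40 and 10.56 with miR-27a (-0.55 ± 0.15, adjusted p = 0.031, and -0.69 ± 0.15, adjusted p = 0.0098). NUP42, which acts in mRNA export, and AAAS, the protein altered in triple A syndrome, were not called. AAAS had values of 0.18 ± 0.23 and -0.61 ± 0.23 (adjusted p = 0.077 with miR-27a, or 0.0097 when blocked by replicate), and NUP42 of 0.24 ± 0.13 and 0.34 ± 0.13 (adjusted p = 0.072, or 0.027 when blocked by replicate). With miR-23b, NUP214 was lost without pull-down replicate 2 or either input (adjusted p up to 0.089), and NUP88 without input replicate 2, either pull-down, or either miR-27a input (up to 0.18). NUP88 was lost with miR-27a without pull-down replicate 1 or input replicate 2 (up to 0.062).

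In the membrane ring NUP210, a glycoprotein that spans the envelope, read 8.94 and 8.92 in the miR-27a inputs and 9.80 and 9.75 in the pull-downs and rose by 0.85 ± 0.21 (limma, adjusted p = 0.018), with 0.46 ± 0.21 with miR-23b (adjusted p = 0.15). NDC1, its neighbour in the membrane, had values of 0.20 ± 0.28 and 0.24 ± 0.28. NUP62CL, a gene related to NUP62, rose by 0.61 ± 0.14 with miR-27a (adjusted p = 0.011) and stood at 0.36 ± 0.14 with miR-23b (adjusted p = 0.090, or 0.027 when blocked by replicate). NUP210 lost its call without any one of the 4 miR-27a arrays (adjusted p up to 0.083), and NUP62CL without either miR-27a pull-down or input replicate 2 (up to 0.067).

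**Figure D2:**
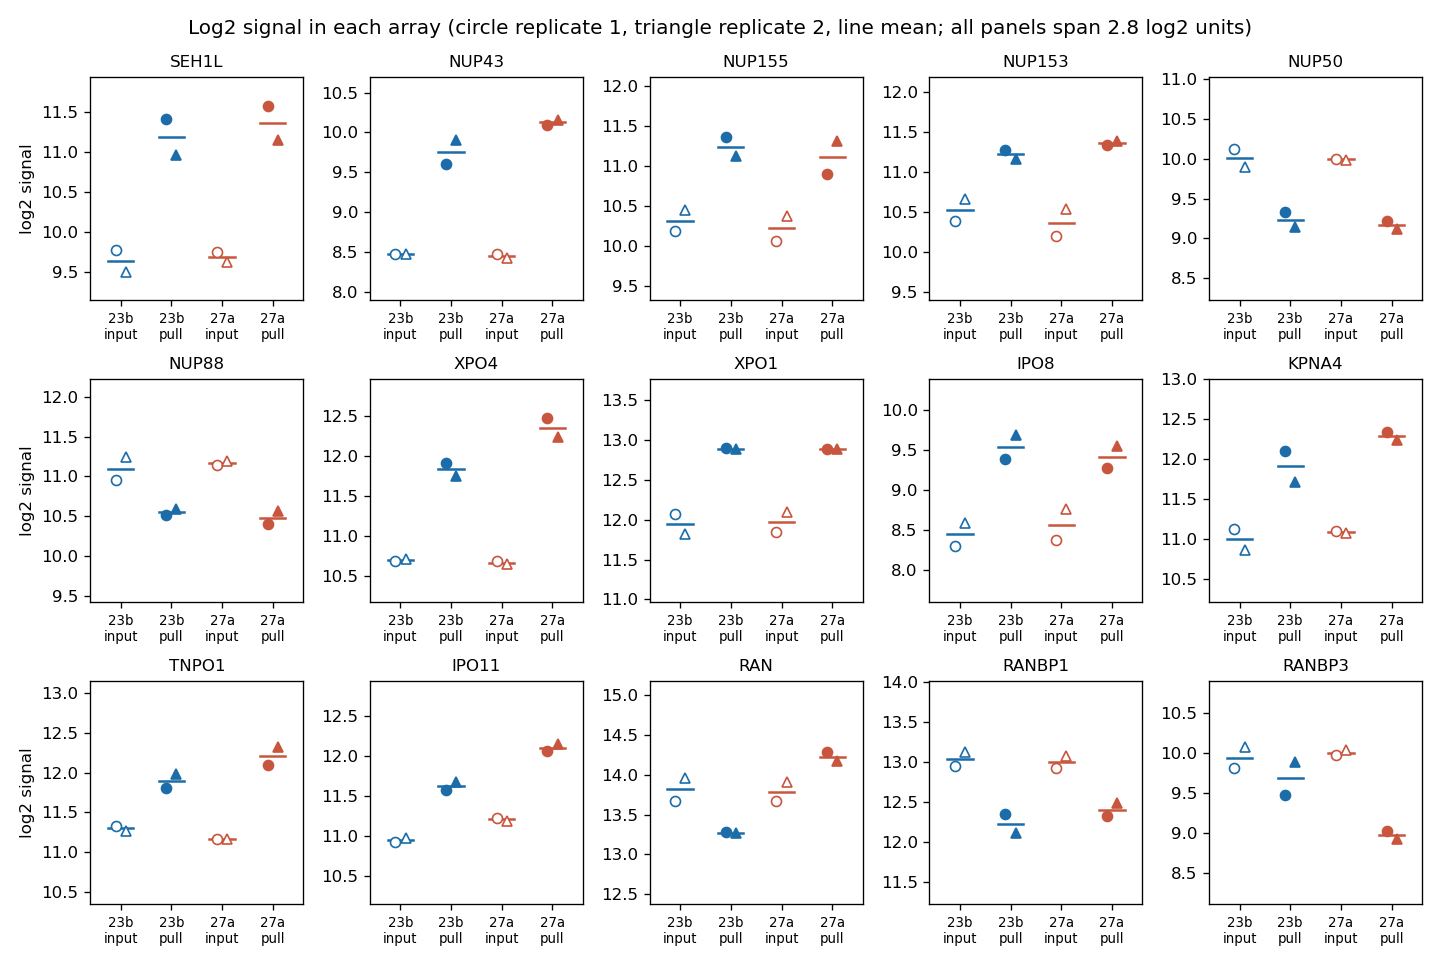
Log2 signal of 15 members in each of the 8 arrays, with inputs open, pull-downs filled, replicate 1 as a circle, replicate 2 as a triangle and the group mean as a line; each panel spans the same number of log2 units. SEH1L, NUP43, XPO4 and XPO1 show pull-downs well above inputs with both miRNAs, NUP50 and RANBP1 show the reverse, and RAN is below its inputs with miR-23b and above them with miR-27a.

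Transport receptors of the importin beta family had 19 measured members, and 7 (36.8%) were called higher and 0 lower in each pull-down, with medians of 0.49 and 0.37 (by limma at an unadjusted p under 0.05, and with the replicate block, 0 were lower as well). Over all genes 13.4% were higher and 10.9% lower with miR-23b, and 18.5% and 16.1% with miR-27a. The 12 import receptors included 4 that were higher for miR-23b and 5 for miR-27a (33.3% and 41.7%), and the 7 export receptors 3 and 2 (42.9% and 28.6%). Export and import receptors thus both included rising genes.

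XPO4, an exportin whose cargoes include the translation factor eIF5A, had the largest change of all members with miR-27a. It read 10.68 and 10.71 in the miR-23b inputs and 11.92 and 11.76 in the pull-downs, and 10.68 and 10.65 against 12.48 and 12.24 with miR-27a. The changes were 1.14 ± 0.14 (limma, adjusted p = 0.0029) and 1.69 ± 0.14 (adjusted p = 0.00060, apparent fold 3.24). XPO1, or CRM1, the general exportin for proteins with a leucine-rich signal, read 12.08 and 11.82 in the miR-23b inputs against 12.90 and 12.88 in the pull-downs. The miR-27a arrays gave 11.84 and 12.10 against 12.88 and 12.88. All 4 pull-downs were thus almost equal, and XPO1 rose by 0.94 ± 0.15 (adjusted p = 0.0056) and 0.91 ± 0.15 (adjusted p = 0.0038). Both exportins stayed called in both pull-downs under every omission of 1 array.

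CSE1L, which returns importin alpha to the cytoplasm, read 13.08 and 13.01 in the miR-23b inputs and 13.66 and 13.60 in the pull-downs. It rose by 0.58 ± 0.12 (limma, adjusted p = 0.015, and up to 0.083 without pull-down replicate 1 or either input) and had a value of 0.28 ± 0.12 with miR-27a (adjusted p = 0.12). XPO5, the exportin of microRNA precursors, read 10.51 and 10.67 in the miR-23b inputs and 10.81 and 11.67 in the pull-downs, and 10.46 and 10.50 against 10.65 and 11.43 with miR-27a. Both pull-downs of replicate 2 were well above the inputs and those of replicate 1 slightly above. XPO5 did not pass, with 0.65 ± 0.32 (adjusted p = 0.17, or 0.025 when blocked by replicate) and 0.56 ± 0.32 (adjusted p = 0.20, or 0.040 when blocked by replicate). XPO6, the exportin of actin, XPO7 and the tRNA exportin XPOT passed in neither, with values from 0.00 to 0.46 with miR-23b and from -0.01 to 0.33 with miR-27a, and the block called XPO6 higher with miR-23b (adjusted p = 0.020). XPOT, with input means of 7.88 (miR-23b) and 7.98 (miR-27a), lay near the lowest values of the arrays. Little can be read from its lack of a call.

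Among import receptors IPO8, described as a carrier of Argonaute and SMAD proteins, read 8.29 and 8.59 in the miR-23b inputs and 9.39 and 9.69 in the pull-downs. With miR-27a it read 8.37 and 8.76 against 9.28 and 9.55. Its changes were 1.10 ± 0.20 (limma, adjusted p = 0.0087) and 0.85 ± 0.20 (adjusted p = 0.014). IPO7, the close paralogue of IPO8, read 7.99 and 8.18 in the miR-23b inputs and 8.66 and 8.96 in the pull-downs, and rose by 0.73 ± 0.16 (adjusted p = 0.016) and, with miR-27a, by 0.70 ± 0.16 (adjusted p = 0.013). With miR-27a both genes lost their call without input replicate 1 or pull-down replicate 2 (adjusted p up to 0.093), and IPO7 also with miR-23b without pull-down replicate 2 or either input (up to 0.081).

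IPO11, which imports ubiquitin-conjugating enzymes, read 10.93 and 10.97 in the miR-23b inputs and 11.58 and 11.68 in the pull-downs, and 11.23 and 11.19 against 12.06 and 12.15 with miR-27a. The replicates of each group lay close together, and IPO11 rose by 0.68 ± 0.13 (limma, adjusted p = 0.0090) and 0.90 ± 0.13 (adjusted p = 0.0022). TNPO1, or transportin, which imports RNA-binding proteins such as HNRNPA1, read 11.34 and 11.26 in the miR-23b inputs against 11.80 and 11.98 in the pull-downs, and 11.17 and 11.17 against 12.10 and 12.32 with miR-27a. It rose by 0.59 ± 0.14 (adjusted p = 0.021) and 1.04 ± 0.14 (adjusted p = 0.0020). With miR-23b TNPO1 was not called without pull-down replicate 2 or either input (adjusted p up to 0.11), while IPO11 was called throughout.

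RANBP6, a relative of IPO5, rose with miR-27a by 0.71 ± 0.23 (limma, adjusted p = 0.049) and stood at 0.34 ± 0.23 with miR-23b (adjusted p = 0.32). That call was lost under median scaling of the arrays (adjusted p = 0.053), under quantile normalization (0.055) and without any one of 6 arrays, the 4 miR-27a arrays and both miR-23b pull-downs (up to 0.25). The other 7 import receptors passed in neither pull-down. KPNB1, importin beta itself, which carries most classical cargo together with importin alpha, read 12.56 and 12.76 in the miR-23b inputs and 12.51 and 12.57 in the pull-downs, and 12.65 and 12.82 against 12.35 and 12.68 with miR-27a. Its groups overlapped in both comparisons (-0.12 ± 0.16, adjusted p = 0.63, and -0.21 ± 0.16, adjusted p = 0.33). TNPO2, the paralogue of TNPO1, had values of 0.46 ± 0.23 (adjusted p = 0.18, or 0.040 when blocked by replicate) and -0.07 ± 0.23, and IPO5 of 0.37 ± 0.21 and 0.41 ± 0.21. IPO4, IPO9, IPO13 and TNPO3, the importin of splicing factors, ranged from 0.29 to 0.64 with miR-23b and from -0.34 to 0.37 with miR-27a, and the block called IPO4 and IPO13 higher with miR-23b (adjusted p = 0.026 and 0.018).

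The 6 importin alpha adaptors, which bind the classical nuclear localization signal and hand the cargo to KPNB1, included 2 called members, both higher in each pull-down (33.3%, against 13.4% and 18.5% of all genes). KPNA4 read 11.12 and 10.87 in the miR-23b inputs and 12.10 and 11.72 in the pull-downs, and 11.10 and 11.07 against 12.34 and 12.24 with miR-27a. It rose by 0.92 ± 0.17 (limma, adjusted p = 0.0089, and 0.060 without miR-23b input replicate 2) and 1.21 ± 0.17 (adjusted p = 0.0022, apparent fold 2.31). KPNA3, the closest relative of KPNA4, read 9.56 and 9.37 against 10.25 and 9.89 with miR-23b and 9.27 and 9.23 against 9.68 and 10.07 with miR-27a, and rose by 0.60 ± 0.18 (adjusted p = 0.048) and 0.63 ± 0.18 (adjusted p = 0.032).

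KPNA1, KPNA5 and KPNA6, another subfamily, had values of -0.09, -0.37 and 0.96 with miR-23b and of -0.33, -0.31 and 0.52 with miR-27a, with the smallest adjusted p at 0.10. KPNA2 read 8.55 and 9.49 in the miR-23b inputs and 7.98 and 7.96 in the pull-downs, so that its inputs differed from each other by almost as much as the change of -1.05 ± 0.42 (limma, adjusted p = 0.11). The miR-27a arrays gave 8.38 and 9.67 against 8.45 and 8.17 (-0.72 ± 0.42, adjusted p = 0.22). The replicate block called KPNA6 higher in both pull-downs (adjusted p = 0.0016 and 0.025), KPNA2 lower with miR-23b (0.025) and KPNA1 lower with miR-27a (0.047). The call of KPNA3 with miR-23b was lost under quantile normalization (adjusted p = 0.057) and without pull-down replicate 1 or any of the 4 inputs (up to 0.21), and with miR-27a without either of its inputs or pull-down replicate 2 (up to 0.18). NXT1, the small partner of the mRNA export receptor NXF1, was the one receptor called lower, from 11.55 and 11.29 to 10.92 and 10.44 with miR-23b (-0.74 ± 0.23, adjusted p = 0.049), and read 11.38 and 11.27 against 11.61 and 11.08 with miR-27a (0.02 ± 0.23, adjusted p = 0.95). Its call was lost without miR-23b pull-down replicate 2 or any of the 4 inputs (up to 0.21).

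In the Ran cycle 2 of 5 measured members were lower in each pull-down (40%, against 10.9% and 16.1% of all genes). RANBP1, which helps RANGAP1 to make Ran hydrolyse GTP, read 12.95 and 13.12 in the miR-23b inputs and 12.34 and 12.11 in the pull-downs, and 12.92 and 13.07 against 12.32 and 12.48 with miR-27a. It fell by 0.81 ± 0.15 (limma, adjusted p = 0.0092, and 0.062 without miR-23b input replicate 2) and 0.60 ± 0.15 (adjusted p = 0.019, and up to 0.10 without any one of the miR-27a arrays). RANBP3, a cofactor of XPO1, read 9.97 and 10.04 in the miR-27a inputs and 9.02 and 8.92 in the pull-downs, which were far below, and fell by 1.04 ± 0.18 (adjusted p = 0.0042), a call that held under each of the 8 omissions. With miR-23b its groups overlapped, at 9.81 and 10.08 against 9.47 and 9.89 (-0.26 ± 0.18, adjusted p = 0.31). RANGAP1, RCC1, the exchange factor that loads Ran with GTP, and RANBP10 passed in neither, with values from 0.10 to 0.25 with miR-23b and from -0.51 to 0.30 with miR-27a.

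RAN itself read 13.67 and 13.96 in the miR-23b inputs and 13.28 and 13.27 in the pull-downs, a fall of 0.54 ± 0.16 (limma, adjusted p = 0.038). With miR-27a it read 13.67 and 13.91 in the inputs and 14.28 and 14.17 in the pull-downs, a value of 0.44 ± 0.16 (adjusted p = 0.062, or 0.020 when blocked by replicate, 0.046 after quantile normalization and 0.044 for the mean of its probes). Pull-downs thus lay below all inputs with miR-23b and above all inputs with miR-27a. The call with miR-23b was lost under quantile normalization (adjusted p = 0.055) and without miR-23b input replicate 2 or any of the 4 pull-downs (up to 0.21). A second probe of RAN gave -0.48 with miR-23b and 0.52 with miR-27a.

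The difference between the changes with the 2 miRNAs was tested in the same fit. No member passed, where among all genes 0.262% were called higher for miR-23b and 0.283% for miR-27a, and at an unadjusted p under 0.05 in limma 4 members were higher for miR-23b and 3 for miR-27a. RAN had the smallest p, with a difference of -0.98 ± 0.22 (adjusted p = 0.15). The replicate block called 2 members, RAN as higher with miR-27a (adjusted p = 0.022) and NUP37 as higher with miR-23b (1.07 ± 0.48, adjusted p = 0.011, and 0.56 without the block), where over all genes 3.2% were called higher for miR-23b and 1.48% for miR-27a. The calls that stood in only one pull-down, such as those of NUP214, CSE1L, NUP54, NUP188, NUP210, RANBP3 and NXT1, were therefore not shown to differ between the miRNAs (adjusted p from 0.35 to 0.90).

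**Figure D3:**
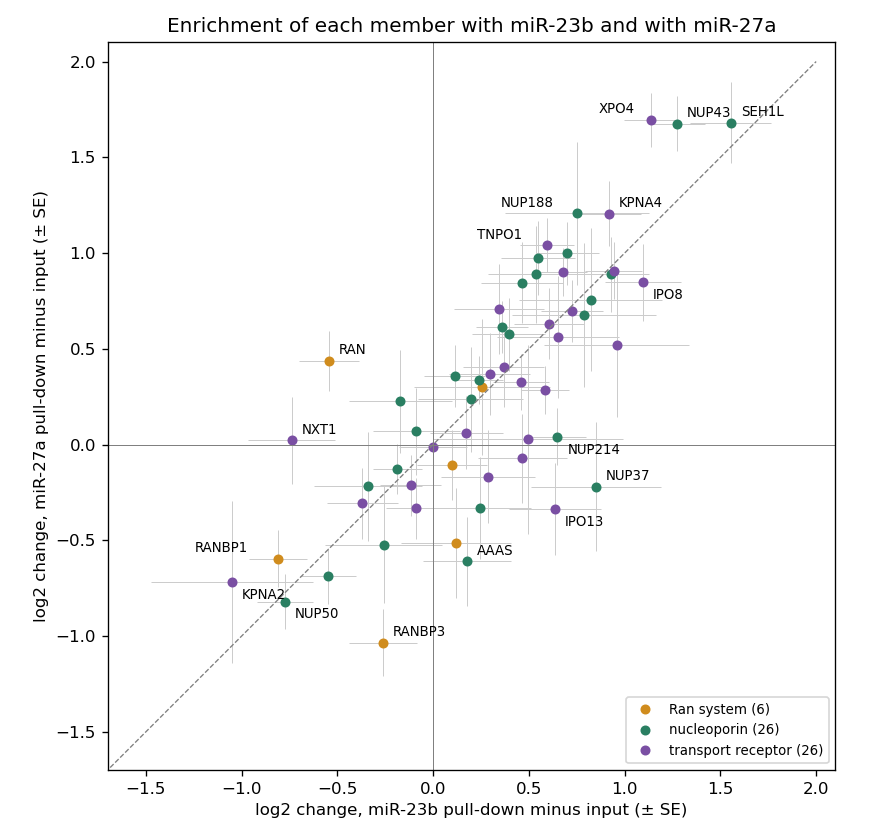
Log2 change (with SE) of each member with miR-23b on the horizontal axis and with miR-27a on the vertical axis, coloured by class, with the dashed line marking equal change. Most members lie near that line, XPO4, NUP43 and SEH1L at its upper end, and RAN is the member of the upper left quadrant farthest from it.

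In both pull-downs 12 members were higher, 85.7% of the 14 called with miR-23b and 63.2% of the 19 called with miR-27a. They were the nucleoporins SEH1L, NUP43, NUP155 and NUP153 and the receptors XPO4, XPO1, IPO8, IPO7, IPO11, TNPO1, KPNA4 and KPNA3. NUP50, NUP88 and RANBP1 were lower in both, 60% and 75% of the members called lower, and 0 were called in opposite directions, where 36 of all genes were. Over all genes 74.5% of those higher with miR-23b and 53.9% of those higher with miR-27a were higher in both, and 76.2% and 51.8% of those lower were lower in both. Across the 58 members the changes with the 2 miRNAs had a Pearson r of 0.78, and across all genes 0.79, with genes not being independent replicates and the same-numbered arrays moving together. Changes of the members within replicate 1 and within replicate 2 had an r of 0.75 for miR-23b and 0.80 for miR-27a, and the input level bore little relation to the change (r of -0.08 and -0.02).

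The inputs did not separate the members. Between the miR-27a and the miR-23b inputs 0 members were called in either direction, as were 0% of all genes, with changes from -0.22 to 0.26, and at an unadjusted p under 0.05 in limma, as with the replicate block, 0 members differed as well.

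Several probes represented 11 members, and none had probes called in opposite directions. SEH1L (brightest probe ILMN_1708619) was higher by 2 of its 3 probes in each pull-down, by 1.04 and 1.55 with miR-23b and by 1.72 and 1.68 with miR-27a, while the other probe (ILMN_2381138) gave -0.09 and -0.02. TNPO1 had the same form, with 2 of 3 probes higher and the other at -0.08 and -0.11. Both probes of XPO4 rose in both pull-downs, by 0.89 and 1.14 with miR-23b and by 1.17 and 1.69 with miR-27a. RANBP1 was lower by both probes with miR-23b (-1.39 and -0.81) and by 1 of 2 with miR-27a, and RANBP3 by 2 of 3 with miR-27a, where the dimmest probe gave -0.14. For NUP54 the dimmer probe gave 0.29 with miR-27a and for CSE1L 0.41 with miR-23b, neither called. NUP42 was higher by its dimmer probe with miR-27a (0.46). Probes of a gene can bind different transcript ends and near copies such as pseudogenes or paralogues, and which transcripts each probe bound was not analysed here.

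**Figure D4:**
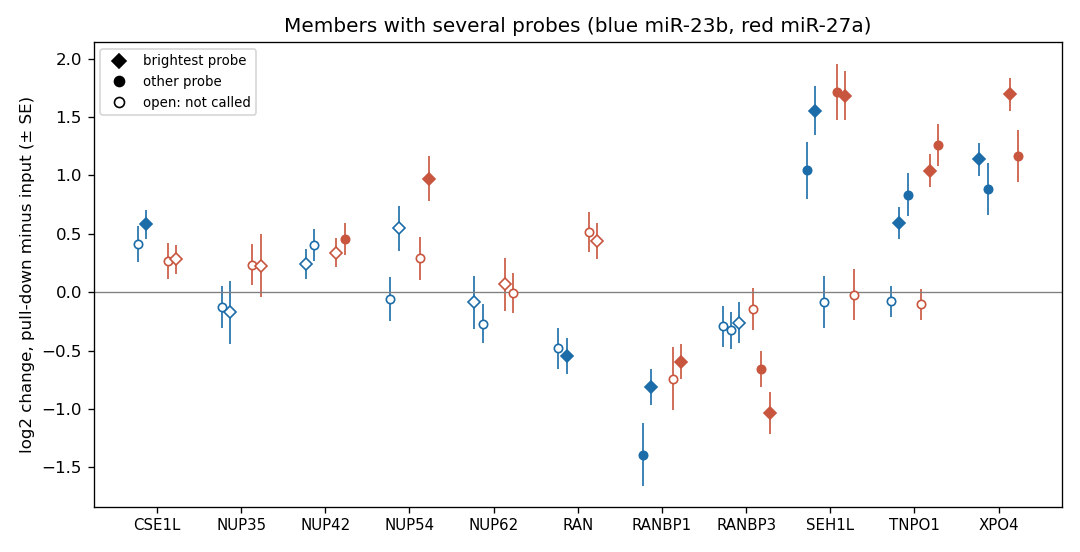
Log2 change (with SE) by probe for the 11 members with several probes, blue for miR-23b and red for miR-27a, diamonds for the brightest probe of the gene, filled where called. The probes of XPO4, RANBP1 and RAN lie on one side of 0 within each pull-down, while 1 of 3 probes of SEH1L and of TNPO1 lies near 0.

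Genes of the same pathway outside the naming rule (export factors, other nucleoporins, lamina and envelope proteins) were also counted. Of 47 listed, 41 were measured, and 2 were higher and 2 lower with miR-23b (4.88% each, where all genes had 13.4% and 10.9%, median -0.08). With miR-27a 6 were higher and 7 lower (14.6% and 17.1%, near the 18.5% and 16.1% of all genes, median -0.17). With the replicate block 7 were higher and 9 lower with miR-23b, where 24.5% and 20.2% of all genes were. The block called 6 higher and 15 lower with miR-27a, where 26.4% and 27% of all genes were. LBR, the lamin B receptor of the inner nuclear membrane, read 9.72 and 9.51 in the miR-23b inputs and 10.98 and 10.85 in the pull-downs, and 9.58 and 9.27 against 11.13 and 11.04 with miR-27a. It rose by 1.30 ± 0.16 (limma, adjusted p = 0.0027) and 1.66 ± 0.16 (adjusted p = 0.00083). TMEM33, a membrane protein of the pore and the endoplasmic reticulum, rose by 1.11 ± 0.27 (adjusted p = 0.022) and 1.35 ± 0.27 (adjusted p = 0.0076). AHCTF1, or ELYS, which seats the Y complex on chromatin, rose by 1.00 ± 0.21 with miR-27a (adjusted p = 0.0096). With miR-23b AHCTF1 stood at 0.67 ± 0.21 (adjusted p = 0.055, or 0.0061 when blocked by replicate).

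Most listed genes of mRNA export were not called, and those that were called fell, apart from SRSF7. SRSF7, a splicing factor that also acts in export, rose with miR-27a by 0.97 ± 0.17 (limma, adjusted p = 0.0051). With miR-23b SRSF7 stood at 0.54 ± 0.17 (adjusted p = 0.057, or 0.0074 when blocked by replicate). SRSF7, SEC13, ENY2, DDX19B, SNUPN, the value of AHCTF1 with miR-23b and that of CHTOP with miR-27a were named after their values were seen. THOC7, of the THO complex, fell by 1.00 ± 0.26 (limma, adjusted p = 0.027) and 0.91 ± 0.26 (adjusted p = 0.028), and CHTOP, an adaptor of NXF1, by 0.64 ± 0.16 (adjusted p = 0.028) with miR-23b and by 0.62 ± 0.16 (adjusted p = 0.022) with miR-27a. ZC3H3 and THOC6 fell with miR-27a, by 0.81 ± 0.26 (adjusted p = 0.042) and 0.70 ± 0.18 (adjusted p = 0.018). Other listed genes called lower with miR-27a were ENY2 (-0.69 ± 0.15, adjusted p = 0.010), DDX19B (-0.58 ± 0.18, adjusted p = 0.036) and SNUPN (-0.56 ± 0.17, adjusted p = 0.034). With miR-23b ENY2, DDX19B and SNUPN were not called (0.26, -0.18 and -0.48), although the block called SNUPN lower (adjusted p = 0.0070). LBR kept its call under every omission of 1 array, and TMEM33 with miR-27a. TMEM33 with miR-23b was lost without pull-down replicate 1 or input replicate 2 (adjusted p up to 0.12) and for the mean of its probes (0.055), and AHCTF1 without miR-27a pull-down replicate 1 (0.052). The falls of THOC7, ZC3H3, THOC6 and, with miR-23b, CHTOP were lost without 3 or 4 of the arrays of their own comparison (up to 0.16). No gene of the list passed for the difference between the miRNAs (5 were higher for miR-23b and 1 for miR-27a at an unadjusted p under 0.05 in limma, and 2 and 0 were called with the replicate block).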

How the data were processed

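The authors deposited log2 values of 14479 probes for 8 Illumina bead arrays, made with lumi 2.2.1 per the submitters' processing notes. How they were transformed, normalized and filtered is not given in the sources used here. Their columns of non-normalized signals and detection p-values (16 value columns) carry names that match no sample and were not used, so that no background filter was applied. The 4 groups came from the labels. Probes were named from the platform annotation (12008 with 1 gene, 2 with several, the latter left out), and symbols of all 58 members matched RefSeq.

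Group means over all 8 arrays were fitted with limma 3.58.1 in R 4.3.3 (4 residual degrees of freedom, two-sided, Benjamini-Hochberg over 14479 probes) and tested on simulated data. Members and gene lists were chosen with earlier results of these data known. Named genes were, per class and pull-down, up to 10 rises and 6 falls called with pull-downs beyond both inputs, and KPNB1, XPO1, XPO5, IPO8, RAN, NXF1, TPR, RANBP2 and NUP98 whatever their values. Remaining members are given so that each role is complete, and were named after their values were seen.

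Same-numbered arrays deviated together across probes (r from 0.34 to 0.80 over 6 pairs of groups), so the numbers were taken to pair the arrays, from the data and not the labels. The main fit held no term for this pairing, which entered only through the replicate block. A gene that did not pass in the main fit could therefore pass with the block. Alternatives were the replicate block, median scaling, quantile normalization, a filter at the 25th percentile of signal, the mean of a gene's probes, adjustment over 1 probe per gene, a trended robust moderation, each miRNA's own 4 arrays, and the omission of each array. The number of arrays limits the precision.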

Additional observations from a re-analysis of the deposited data

Results flagged for a closer look

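RAN was flagged because its change ran in opposite directions with the 2 miRNAs. Other members also had values of opposite sign, such as NUP37 (0.85 with miR-23b and -0.22 with miR-27a). The difference for NUP37 was 1.07 ± 0.48 (limma, adjusted p = 0.56, and 0.011 with the replicate block). For RAN only the fall with miR-23b was called in the main fit (adjusted p = 0.038, and 0.062 with miR-27a). Both pull-downs of RAN lay below both inputs with miR-23b and above both with miR-27a, and the difference between the changes was -0.98 ± 0.22 on the log2 scale (limma, adjusted p = 0.15, and 0.022 with the replicate block). It stayed uncalled without the block in each of the 8 fits that left out 1 array, and the dimmer probe of RAN pointed the same ways.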

How the results depend on the processing

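With the replicate block the members called rose from 19 to 35 with miR-23b and from 0 to 2 for the difference between the miRNAs. Nucleoporins called higher with miR-23b went from 5 to 13 and receptors from 9 to 15, receptors called lower from 1 to 2, and with miR-27a nucleoporins called lower from 2 to 5 and receptors called lower from 0 to 1. The block removed no call and altered no call of a member other than those given beside their values. In a fit of the 4 miR-23b arrays alone 11 members were called, 5 receptors higher, 0 receptors lower and 1 nucleoporin lower. With a trended robust moderation 1 nucleoporin and 0 receptors were lower with miR-23b. Median scaling, quantile normalization, the filter on dim probes, the mean of a gene's probes and the adjustment over 1 probe per gene kept each of these counts within 1.5 times. Among named genes, the fit of the own arrays lost the calls of NUP214, NUP88, IPO7, KPNA3, TNPO1, CSE1L, NXT1, RAN, TMEM33, THOC7 and CHTOP with miR-23b and of NUP133 with miR-27a, and the trended moderation those of NUP88, KPNA3, NXT1 and NUP133. Scaling moved the median of all genes by at most 0.03. The planned start from non-normalized signals was not run because their columns match no sample.

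When each array was left out in turn, the members called ranged from 9 to 18 with miR-23b (19 with all arrays), from 12 to 22 with miR-27a (23), and from 0 to 0 for the difference and for the inputs. With miR-23b 2 to 7 nucleoporins were higher and 1 to 2 lower, and 4 to 9 receptors higher and 0 to 1 lower. With miR-27a the ranges were 4 to 9 and 1 to 3 for nucleoporins, and 5 to 9 and 0 to 1 for receptors. The lowest totals came without miR-23b input replicate 2 and without miR-27a pull-down replicate 2. TPR with miR-23b, uncalled throughout, ranged from -0.52 (without its input replicate 1) to 0.0035 (without input replicate 2), against -0.26 with all arrays. With 2 arrays a group, small changes on the log2 scale could not be separated from the spread.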
